A study of Mus musculus with 4 samples.

Results

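*Cxcl2*, *Cxcl10*, *Ccl2*, *Ccl3*, *Ccl4*, *Ccl5*, *Ccl6*, *Ccl9*, and *Ccl22* are 9 of the 32285 genes in the single-cell RNA-sequencing (scRNA-seq) matrices, and each encodes an inflammatory chemokine. They were selected on their levels and on the share of barcodes with a transcript in each cell class and library, so these values are a description and carry no test. scRNA-seq was performed on 4 libraries of C57BL/6J mice 8 to 16 weeks of age, 1 from each tissue and state: bone marrow of control (CBM) and tumor-bearing mice (TBM), and spleen of control (CS) and tumor-bearing mice (TS). Tumors grew from PyMT-B6 cells, derived from the MMTV-PyMT model, in which a mammary promoter drives the oncogene. The methods describe such transplants as 500000 cells under the skin of the flank, harvest on day 21, and PBS for controls, and they name female mice as the rule. How many mice stand behind each library was not given, so the spread between animals is unknown. All 4 libraries share the digestion with collagenase and DNase, the depletion of lineage-positive cells, and the sort into c-Kit+ CD45+ cells and CD45- cells gated on CD31 and CD51, after which the fractions were mixed at equal ratios. The methods announce 5 populations and list 6 gates. A level is therefore one in this sorted mix, not in the whole organ.

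Chemokines are small secreted proteins that guide leukocytes by binding G protein-coupled receptors, and the CC and CXC families are told apart by the spacing of their first cysteines. CXCL2 draws neutrophils through CXCR2, CXCL10 is an interferon-induced ligand of CXCR3 on activated lymphocytes, CCL2 calls monocytes out of the marrow through CCR2, and CCL22, a product of dendritic cells, binds CCR4. CCL3, CCL4, and CCL5 attract monocytes and T cells, while CCL6 and CCL9, which occur in rodents, bind CCR1, as CCL3 and CCL5 also do. In hematopoietic tissue, such ligands set where neutrophils and monocytes are held or released, and CCL3 is known to restrain the cycling of hematopoietic progenitors.

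*Cxcl2* (ENSMUSG00000058427) lies on chromosome 5 of GRCm38 from 90903871 to 90905938 and *Cxcl10* (ENSMUSG00000034855) on the same chromosome from 92346638 to 92348889, within *Art3* on the other strand. *Ccl2* (ENSMUSG00000035385) lies on chromosome 11 from 82035571 to 82037453 and is overlapped by *Gm17268*. Further along that chromosome, *Ccl5* (ENSMUSG00000035042, 83525778 to 83530518), *Ccl9* (ENSMUSG00000019122, 83572919 to 83578636), *Ccl6* (ENSMUSG00000018927, 83587882 to 83593087), *Ccl3* (ENSMUSG00000000982, 83647844 to 83649355), and *Ccl4* (ENSMUSG00000018930, 83662584 to 83664683) follow each other within 138906 bases, with *E230016K23Rik* on the strand opposite *Ccl6*. *Ccl22* (ENSMUSG00000031779) lies on chromosome 8 from 94745590 to 94751699. Whether the counting used strand is not given in the sources used here, and without it reads of *Cxcl10*, *Ccl2*, and *Ccl6* could not be told from those of the overlapping genes.

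Promoters are shown for 5 of the genes whose class and library values are described below, and the table used has no entry for *Ccl2*, *Ccl4*, and *Ccl5*. The lines hold the 250 bases before the start of each gene in RefSeq on GRCm38.p6, 5′ to 3′ on the strand of the gene, at chr5:90903649-90903898 (plus strand) for *Cxcl2*, chr5:92348890-92349139 (minus) for *Cxcl10*, chr11:83649379-83649628 (minus) for *Ccl3*, chr11:83593088-83593337 (minus) for *Ccl6*, and chr11:83578637-83578886 (minus) for *Ccl9*. Capitals mark matches, on either strand, to 4 motifs chosen after the sequences had been seen: GGG, any 3 bases, and TTCC for NF-kB, GAAA, any 2 bases, and GAAA for the interferon-stimulated response element, TGANTCA for AP-1, and AGATAA for GATA factors.
Cxcl2: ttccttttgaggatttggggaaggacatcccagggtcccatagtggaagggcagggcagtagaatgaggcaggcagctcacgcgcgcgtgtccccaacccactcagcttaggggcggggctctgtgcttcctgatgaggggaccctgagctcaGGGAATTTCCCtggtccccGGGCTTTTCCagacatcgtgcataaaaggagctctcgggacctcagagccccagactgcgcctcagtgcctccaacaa
Cxcl10: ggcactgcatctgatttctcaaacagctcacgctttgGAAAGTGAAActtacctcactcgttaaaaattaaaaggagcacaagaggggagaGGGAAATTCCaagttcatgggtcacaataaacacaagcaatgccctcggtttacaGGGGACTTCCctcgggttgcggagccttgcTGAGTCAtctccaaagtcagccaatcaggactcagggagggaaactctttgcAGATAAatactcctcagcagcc
Ccl3: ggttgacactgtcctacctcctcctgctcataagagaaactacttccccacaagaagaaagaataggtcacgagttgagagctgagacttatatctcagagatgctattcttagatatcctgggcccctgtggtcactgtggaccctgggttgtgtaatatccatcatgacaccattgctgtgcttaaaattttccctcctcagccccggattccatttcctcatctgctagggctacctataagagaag
Ccl6: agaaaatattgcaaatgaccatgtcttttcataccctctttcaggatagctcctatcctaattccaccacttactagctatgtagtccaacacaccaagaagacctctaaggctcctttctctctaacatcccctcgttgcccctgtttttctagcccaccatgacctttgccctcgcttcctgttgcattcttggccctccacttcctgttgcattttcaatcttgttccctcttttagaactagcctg
Ccl9: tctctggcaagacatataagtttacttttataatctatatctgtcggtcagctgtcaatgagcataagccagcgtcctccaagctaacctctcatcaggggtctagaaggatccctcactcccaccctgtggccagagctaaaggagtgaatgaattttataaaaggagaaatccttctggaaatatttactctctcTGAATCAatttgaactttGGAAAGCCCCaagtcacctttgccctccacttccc
The *Cxcl2* window holds 3 matches to the NF-kB motif, which begin 97, 96, and 78 bases before the start. The first pair overlap, 1 on each strand and shifted by 1 base. *Cxcl10* has 2 NF-kB matches, at 159 and 104 bases, together with 1 to the interferon motif at 213, 1 to AP-1 at 74, and 1 to GATA at 22. In *Ccl9*, 1 NF-kB match on the other strand begins at 35 bases and 1 AP-1 match at 53. *Ccl3* and *Ccl6* hold none of these letters in this window, and neither does *Ccl22*. Of 32851 windows of this length in RefSeq, 4.65% held the NF-kB motif, 2.98% the interferon motif, 6.75% the AP-1 motif, and 9.99% the GATA motif. A match is a stretch of letters and not a measured binding site.

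Barcodes with at least 1000 genes and at most 10% mitochondrial transcripts were kept (CBM 3497, TBM 4340, CS 3236, TS 5188), with a median of 13738 to 26808 unique molecular identifiers (UMIs, 1 for each transcript molecule counted). They were clustered together with the *Ccl* and *Cxcl* ligand genes, *Cx3cl1*, and *Xcl1* left out. Receptor genes and the ligand genes *Pf4* and *Ppbp* were not among those left out. Clusters were called by marker genes as, for example, hematopoietic stem and progenitor (HSPC)-like. From 13.3% to 31.7% of the barcodes of a library stayed in unnamed clusters. Few barcodes carried stromal marks of the CD45- fractions of the sort. At least 3 of 9 stromal markers were found in 0 CBM, 2 TBM, 0 CS, and 5 TS barcodes. At least 3 of 8 endothelial markers were found in 252 CBM, 297 TBM, 233 CS, and 289 TS barcodes, or 5.57% to 7.21% of a library. The endothelial-like class was smaller and held 14, 35, 11, and 6 in that order. Levels (CPM) are UMIs of a gene per 1000000 UMIs, summed over the barcodes of a class, and 95% intervals in parentheses are exact (Poisson for levels, conditional for ratios, binomial for shares) and cover counting error only. With 1 library per group no test between groups was possible, and a ratio was called higher or lower when it reached 2-fold with at least 20 UMIs over both libraries in classes of at least 50 barcodes in each. Free RNA, which enters every droplet, was read from barcodes with at most 100 UMIs. A level of a gene is compared with levels of the same gene only, since UMI counts do not put genes on 1 scale.

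**Figure D1:**
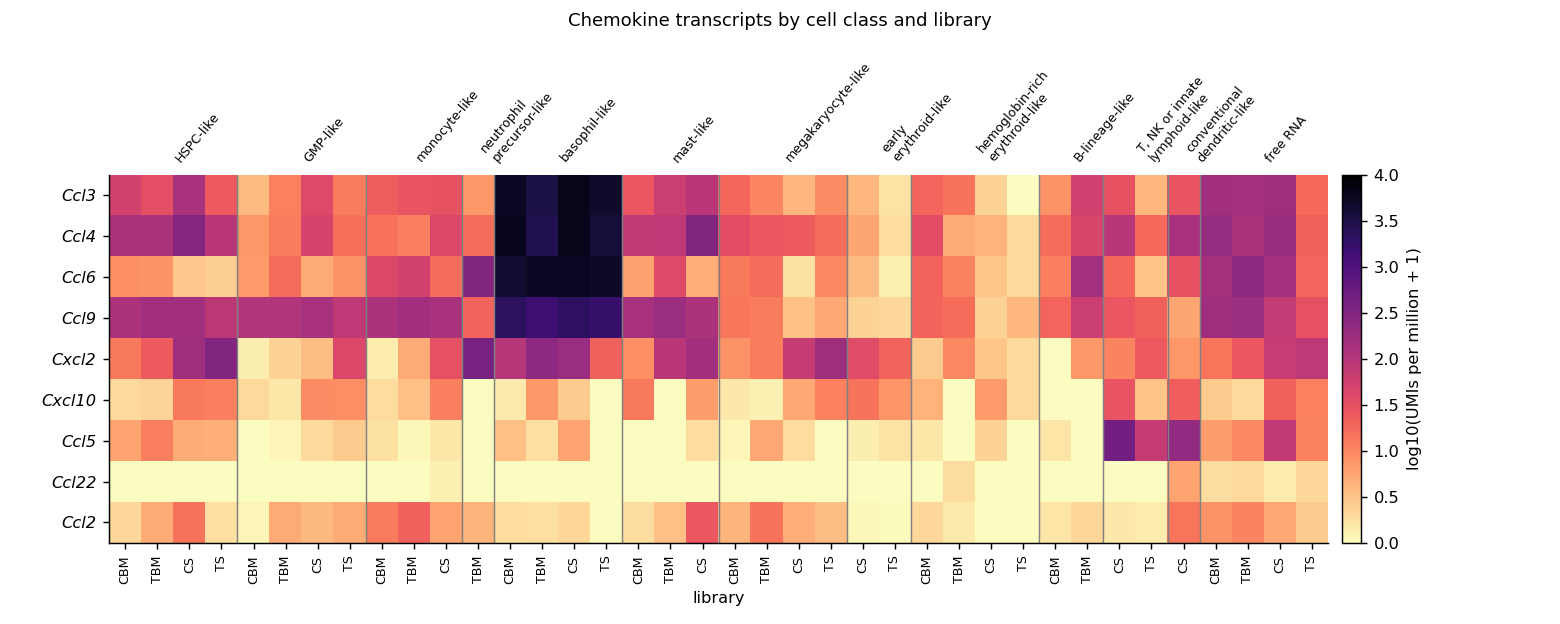
Levels of the 9 chemokine genes (rows) in each cell class with at least 50 barcodes in the library, and in free RNA (columns), as log10 of CPM plus 1. *Ccl3*, *Ccl4*, *Ccl6*, and *Ccl9* are darkest in the 4 basophil-like columns, while *Cxcl2* spreads over several classes, *Ccl5* appears in the T, NK or innate lymphoid-like and conventional dendritic-like columns, and *Ccl22* is nearly empty outside the latter.

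The basophil-like barcodes carried *Ccl3*, *Ccl4*, *Ccl6*, and *Ccl9* at the highest level of any named class in every library that had at least 50 of them. All 8 basophil markers (among them *Mcpt8*, *Cd200r3*, *Fcer1a*, and *Ms4a2*) were at least 2-fold over the rest of the library in each of the 4. The class held 454 CBM, 456 TBM, 297 CS, and 65 TS barcodes. These were shallow, with a median of 4110, 6683.5, 4945, and 3404 UMIs. The 6 pairs of a chemokine gene and this class that passed the minimum for TBM over CBM gave 2 higher and 1 lower, where 8.14% and 5.01% of all genes tested in the class were.

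*Ccl3* in basophil-like barcodes was highest in CS, at 6407 CPM (6289 to 6528), followed by CBM at 5478 CPM (5380 to 5578), TS at 4641 CPM (4413 to 4877), and TBM at 3224 CPM (3166 to 3283). None of these intervals overlap. Nearly every barcode had the transcript: 99.8%, 97.8%, 99.7%, and 95.4% in the order CBM, TBM, CS, and TS, and 98.5%, 92.5%, 98.7%, and 87.3% after each barcode was thinned to 2000 UMIs. In hemoglobin-rich erythroid-like barcodes, which should lack it and had a median of 12836, 12155.5, 19044, and 13508 UMIs, the unthinned share was 7.34%, 5.33%, 3.08%, and 0 of 61, with an exact interval up to 5.87%. The basophil-like barcodes held 88.3% to 89.1% of all *Ccl3* UMIs of the kept barcodes in CBM, TBM, and CS, and 73.2% of those in TS.

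*Ccl4*, the neighbour of *Ccl3* on chromosome 11, showed the same low TBM value. CS came first at 6414 CPM (6295 to 6535), then CBM at 5958 CPM (5855 to 6062), TS at 3799 CPM (3594 to 4014), and TBM at 2665 CPM (2612 to 2719). The log2 ratio of TBM over CBM was -1.16 (-1.20 to -1.12), past 2-fold, while that of *Ccl3* was -0.76 (-0.80 to -0.73) and was not called. Of basophil-like barcodes, 97.6%, 84.9%, 97.3%, and 73.9% had *Ccl4*, against 10.1%, 5.33%, 7.69%, and 1.64% of the hemoglobin-rich ones.

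*Ccl6* and *Ccl9*, both ligands of CCR1, did not follow that order. *Ccl6* was highest in CS, with 5469 CPM (5359 to 5580), and TBM, with 5386 CPM (5311 to 5462), which overlap, and lower in TS, with 4890 CPM (4657 to 5133), and CBM, with 4308 CPM (4221 to 4396). *Ccl9* was highest in CBM, with 2174 CPM (2112 to 2237), and CS, with 2066 CPM (1999 to 2135), which overlap, and lower in TS, with 1739 CPM (1601 to 1886), and TBM, with 1530 CPM (1490 to 1571). No basophil-like ratio of *Ccl6* or *Ccl9* reached 2-fold in any of the 4 comparisons. The share of a library's UMIs that lay in these barcodes was 85.2% to 93.5% for *Ccl6* but only 19.4% to 65.9% for *Ccl9*, which was spread over further classes.

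The basophil-like class was made of 3 clusters that the libraries filled unequally, and a ratio over the class mixes them. Cluster 9, led by *Ccl3*, *Ccl4*, and *Ccl6*, held 381 CBM, 22 TBM, 292 CS, and 8 TS barcodes. Cluster 18, led by *Prss34*, *Mcpt8*, and *Fcer1a*, held 73, 248, 5, and 23. Cluster 24, led by *Ccl6* and the inhibitory receptor genes *Lilr4b* and *Lilrb4a*, held 186 TBM and 34 TS barcodes and none of the controls. The chemokine genes were not used in the clustering, so their order among the leading genes was not built in by them.

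Cluster 24 had the highest *Ccl6* of the 3, at 13370 CPM in TBM and 11910 CPM in TS, against 5433 CPM in CBM and 5861 CPM in CS for cluster 9. Cluster 18 was at 1055 CPM of *Ccl6* in CBM, 2786 CPM in TBM, and 827 CPM in TS, and cluster 9 of TBM at 2629 CPM. In TBM, *Ccl3* was also higher in cluster 24 than in cluster 18, with 6039 and 2289 CPM, and so were *Ccl4*, with 6044 and 1497 CPM, and *Ccl9*, with 3150 and 955 CPM. The low TBM values of *Ccl3* and *Ccl4* over the class thus stand beside 3 clusters of unlike level. Within cluster 18 the log2 ratio of TBM over CBM was -0.51 for *Ccl3*, -0.94 for *Ccl4*, and -0.22 for *Ccl9*, while *Ccl6* was higher in TBM by 1.40. Within cluster 9, with only 22 TBM barcodes, it was -1.27 for *Ccl3*, -1.40 for *Ccl4*, -1.05 for *Ccl6*, and -0.50 for *Ccl9*. For *Ccl6*, the 2 clusters thus went opposite ways while the ratio over the class was 0.32.

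**Figure D2:**
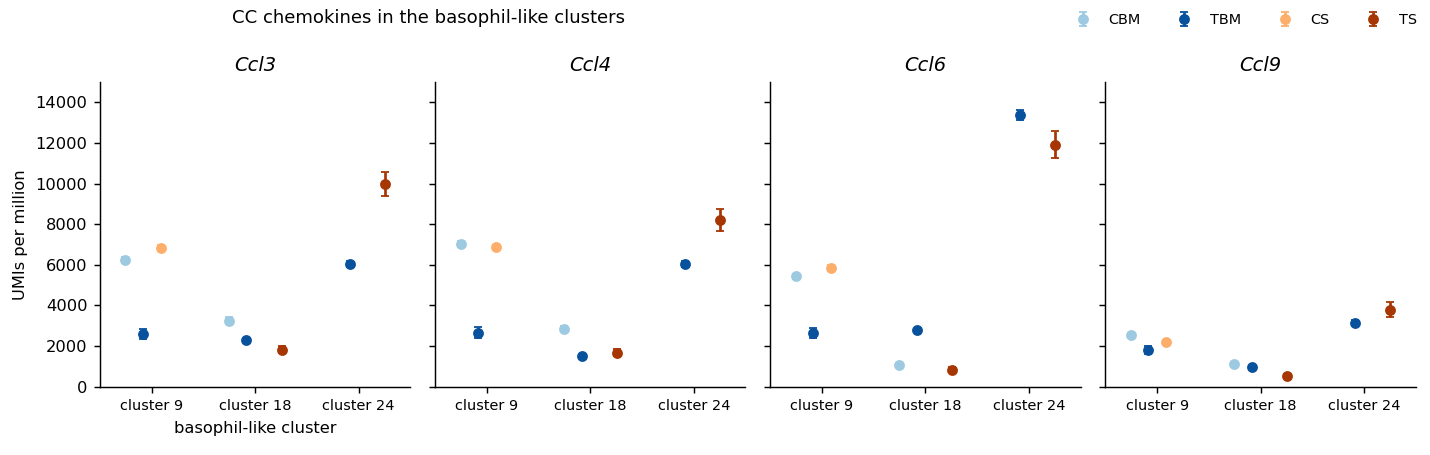
Levels (CPM, linear axis from 0) of *Ccl3*, *Ccl4*, *Ccl6*, and *Ccl9* in each basophil-like cluster, 1 point per library with its exact Poisson 95% interval. Cluster 24, with TBM and TS barcodes only, lies above cluster 18 for every gene in both libraries, and for *Ccl6* above cluster 9 in CBM, TBM, and CS.

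The 10% of basophil-like barcodes with the most UMIs of *Ccl3* held 20.2% to 25.9% of them across libraries, and 22.4% to 28.4% for *Ccl9*. For *Ccl4* this share was 25.0% in CBM and 24.1% in CS but 37.5% in TBM and 36.8% in TS, and for *Ccl6* it was 24.5%, 22.8%, 34.7%, and 33.2%. The 2 tumor-bearing libraries, which hold cluster 24, were the less even ones for both. The deepest single barcode had 312 UMIs of *Ccl6*, in TBM.

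Free RNA carried the same 4 genes, at 154, 153, 162, and 16.6 CPM of *Ccl3* in CBM, TBM, CS, and TS. *Ccl4* was at 201, 126, 191, and 19.96 CPM there, *Ccl6* at 144, 244, 148, and 18.3 CPM, and *Ccl9* at 164, 175, 73.4, and 31.1 CPM. Hemoglobin-rich barcodes had 18.9, 9.38, 1.98, and 0.988 CPM of *Ccl6*, and 28 of the 34 UMIs behind the CBM value were in 1 barcode. The ratio of the genes to each other was used to set the classes beside free RNA. *Ccl4* per *Ccl6* was 1.39, 0.516, 1.29, and 1.09 in free RNA and 1.38, 0.495, 1.17, and 0.777 in basophil-like barcodes, which are close to each other in CBM, TBM, and CS.

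The HSPC-like barcodes did not share that ratio. *Ccl4* UMIs per *Ccl6* UMI were 16.2 (13.2 to 20.1) in CBM and 18.2 (14.9 to 22.5) in TBM, and in spleen 164 (75.0 to 448) in CS and 60.8 (37.2 to 107) in TS. All 4 intervals lie above free RNA and basophil-like barcodes of the same library. *Ccl9* per *Ccl6* also stood apart from free RNA, with 1.14, 0.719, 0.497, and 1.70 in free RNA, 16.2, 22.7, 84.8, and 57.9 in HSPC-like, and 17.6, 6.76, 32.1, and 10.99 in granulocyte-monocyte progenitor (GMP)-like barcodes. Monocyte-like barcodes were at 0.331, 0.212, and 2.82 *Ccl4* per *Ccl6* in CBM, TBM, and CS, under free RNA in both marrow libraries.

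**Figure D3:**
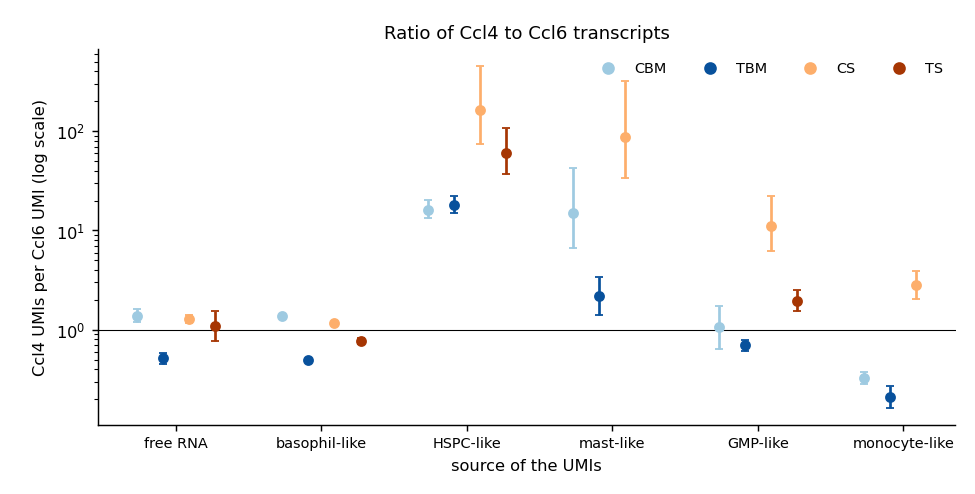
*Ccl4* UMIs per *Ccl6* UMI (log axis) in free RNA and in cell classes, 1 point per library, with exact 95% intervals. Basophil-like points lie near free RNA, while HSPC-like points run from 16.2 to 164, above both.

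In HSPC-like barcodes (823 CBM, 914 TBM, 148 CS, and 690 TS, with 7 or 8 of 8 markers over the rest of the library), *Ccl4* was highest in CS at 303 CPM (285 to 323), then in TBM at 127 CPM (121 to 133) and CBM at 121 CPM (115 to 127), and lowest in TS at 91.0 CPM (85.4 to 96.9). Only CBM and TBM overlap. From CBM to TS in the order used above, the shares with the transcript were 50.1%, 52.7%, 68.2%, and 43.8%, or 17.6%, 17.8%, 31.1%, and 14.9% after thinning to 2000 UMIs, against 1.84%, 0.667%, 1.54%, and 0% thinned in hemoglobin-rich barcodes. Median depth was 14011, 13407.5, 19486.5, and 13724.5 UMIs. *Ccl3* was also highest in CS and lowest in TS. From CBM to TS it was at 53.1 CPM (49.3 to 57.2), 32.8 CPM (29.9 to 35.9), 131 CPM (119 to 144), and 23.9 CPM (21.04 to 27.0), under the free RNA of the library in all but TS. Barcodes with *Ccl3* had *Ccl4* more often than the rest: 30.4%, 43.2%, 59.3%, and 32.1% of them at 2000 UMIs, against 17.6%, 17.8%, 31.1%, and 14.9% of all.

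*Ccl9* was the most evenly spread of the 4. HSPC-like barcodes were highest in TBM at 158 CPM (152 to 165) and CS at 157 CPM (144 to 171), followed by CBM at 120 CPM (114 to 126) and TS at 86.7 CPM (81.2 to 92.5). GMP-like barcodes had 105 CPM (96.6 to 113), 109 CPM (106 to 112), 135 CPM (122 to 149), and 80.3 CPM (75.8 to 84.9), and 72.6%, 83.1%, 100%, and 83.0% of them had the transcript, against 7.34%, 10.0%, 3.08%, and 4.92% of hemoglobin-rich ones. At 2000 UMIs the GMP-like shares were 20.97%, 17.9%, 24.6%, and 16.1%. TS was lowest in both classes, yet the GMP-like barcodes held 40.1% of all *Ccl9* UMIs there, against 6.23% in CBM. Monocyte-like barcodes of CBM, TBM, and CS had 121 CPM (116 to 126), 157 CPM (148 to 166), and 128 CPM (117 to 140), and mast-like barcodes 132, 181, and 128 CPM. The ranges of mast-like, monocyte-like, HSPC-like, and GMP-like barcodes overlap, so no order among these 4 can be given. In both marrow libraries the *Ccl9* levels of all 4 classes but TBM mast-like lay under free RNA, at 164 and 175 CPM, and its part in them was not tested.

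*Ccl6* outside basophil-like barcodes was highest in the neutrophil precursor-like ones, which only TBM held in number. These 52 barcodes were at 307 CPM (265 to 354), over the 244 CPM of free RNA. In monocyte-like barcodes the cluster led by *Fn1*, *Lyz2*, and *Chil3* (cluster 13) had 105 CPM in CBM and 57.9 CPM in TBM, and that led by *F13a1*, *Slpi*, and *Ly86* (cluster 14) 13.04, 12.6, and 8.90 CPM in CBM, TBM, and CS, all under free RNA. The 149 CPM of *Ccl6* in TBM B-lineage-like barcodes came from a single barcode for 117 of its 124 UMIs.

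*Cxcl2*, which encodes a neutrophil attractant, was present in more classes and changed its leading class with the library. In TBM the neutrophil precursor-like barcodes were highest, at 394 CPM (347 to 447), with the transcript in 50% of 52. HSPC-like barcodes ran from 12.3 CPM in CBM to 314 CPM in TS, basophil-like ones from 20.8 CPM in TS to 237 CPM in TBM, mast-like ones from 7.64 CPM in CBM to 158 CPM in CS (with 321 CPM in the 32 barcodes of TS), and megakaryocyte-like ones from 6.97 CPM in CBM to 166 CPM in TS. These 4 ranges overlap, so the classes have no fixed order. The hemoglobin-rich barcodes stayed between 0.988 and 8.93 CPM, with the transcript in 0.917%, 2.67%, 4.62%, and 1.64% of them, and free RNA was at 13.3, 26.1, 66.3, and 85.1 CPM in CBM, TBM, CS, and TS.

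**Figure D4:**
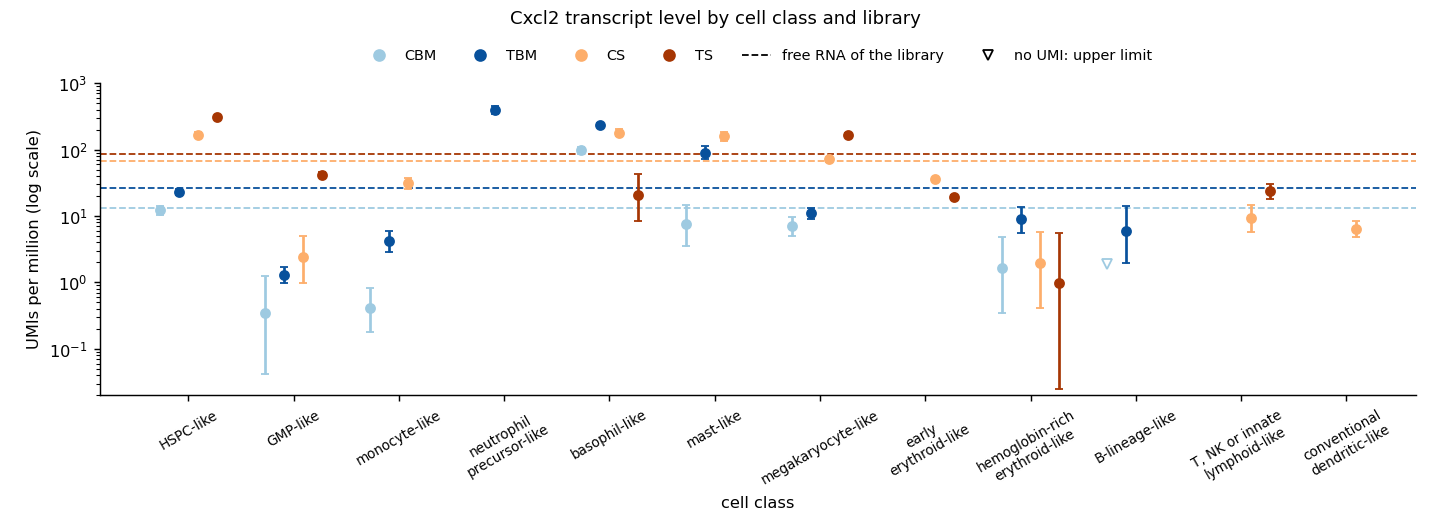
*Cxcl2* level (CPM, log axis) in each cell class with at least 50 barcodes in the library, 1 point per library with its exact Poisson 95% interval; open triangles are upper limits, set at 3 UMIs, where none was counted and dashed lines are free RNA of each library. The HSPC-like, GMP-like, and megakaryocyte-like classes are higher in TS than in CBM, whereas the basophil-like class is highest in TBM at 237 and lowest in TS at 20.8.

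Megakaryocyte-like barcodes had the same order of libraries as the HSPC-like ones. Their *Cxcl2* was highest in TS at 166 CPM (156 to 178), then in CS at 71.1 CPM (64.1 to 78.6), TBM at 11 CPM, and CBM at 6.97 CPM (4.98 to 9.50), and it was found in 29.1%, 20.1%, 6.11%, and 3.94% of them. In TS this was above the 85.1 CPM of free RNA. The log2 ratio was 3.35 (2.88 to 3.86) for CS over CBM, 1.23 (1.05 to 1.40) for TS over CS, and 3.92 (3.64 to 4.21) for TS over TBM.

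GMP-like barcodes had almost no *Cxcl2* outside TS: 2 UMIs in CBM (0.340 CPM), 1.30 CPM in TBM, and 7 UMIs in CS (2.45 CPM), against 42.0 CPM (38.8 to 45.4) in TS. The TS value is under free RNA there. The class lay in different clusters, with 176 of 248 CBM and 51 of 65 CS barcodes in cluster 4, and 321 of 429 TS ones in cluster 6. The TS value came from cluster 6, led by *Cd14*, *Ms4a3*, and *Prtn3*, at 52.4 CPM, while cluster 4, led by *Wfdc21*, *Elane*, and *Cebpe*, had 5.59 CPM in TS against 1.77 CPM in CS, a log2 ratio of 1.66 (0.06 to 3.68). TBM had 425 barcodes of cluster 6 and these were at 1.73 CPM. The ratio of TS over TBM for the class was 5.01 (4.60 to 5.46), so it held between libraries that both filled cluster 6.

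Monocyte-like barcodes had 8 *Cxcl2* UMIs in CBM (0.411 CPM), 31 in TBM (4.17 CPM), and 114 in CS (31.1 CPM). TBM exceeded CBM by 3.34 (2.19 to 4.68) on the log2 scale, and CS exceeded it by 6.24 (5.21 to 7.49). All 3 levels were under the free RNA of the library, and the CS barcodes were mostly in cluster 14 while TBM had most of its own in cluster 13. Within cluster 14, CS over CBM was 6.71 (5.31 to 8.61), and within cluster 13, TBM over CBM was 2.84 (1.34 to 4.81). CBM had 4 UMIs in each of these clusters. In the same class, *Cxcl10* was at 0.977, 2.29, and 10.6 CPM, and *Ccl4* at 13.9, 10.9, and 42.3 CPM. The *Ccl4* levels were under free RNA in each of these libraries, and those of *Cxcl10* in CBM and CS. With 10% free RNA subtracted, the CS over CBM ratio of *Ccl4* moved by 5.62 on the log2 scale. That was the largest shift among the ratios recomputed singly in that setting.

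Basophil-like *Cxcl2* went the other way in TS. TBM was highest at 237 CPM (222 to 254), then CS at 181 CPM (161 to 202), CBM at 97.2 CPM (84.5 to 111), and TS at 20.8 CPM (8.37 to 42.9). The TS value rests on 7 UMIs in 65 barcodes, and it was under free RNA. Between marrows TBM was higher by 1.29 (1.07 to 1.51), and this ratio was 1.24 within cluster 9 and 1.03 within cluster 18. The TS over CS ratio of -3.12 (-4.44 to -2.06) depended on the barcodes kept: with at least 350 genes per barcode, 9 further TS barcodes raised the count from 7 to 82 UMIs and the ratio to 0.37, and that of TS over TBM from -3.51 (-4.83 to -2.46) to -0.03.

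*Cxcl2* sat in few basophil-like barcodes. They had the transcript in 6.17%, 16.9%, 10.8%, and 4.62% of cases in CBM, TBM, CS, and TS, and the 10% with the most UMIs held 89.6% to 100% of them. Single barcodes reached 28, 51, and 37 UMIs in CBM, TBM, and CS. In HSPC-like barcodes the top 10% held 100% in both marrow libraries, 63.7% in CS, and 49.8% in TS. This share is 100% wherever at most 10% of the barcodes have the transcript. Among the TS HSPC-like ones, barcodes with *Cxcl2* at 2000 UMIs (214) had *Ccl4* in 15.9% and *Ccl9* in 13.6%, beside 14.9% and 12.9% of all 690.

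Early erythroid-like barcodes had 36.1 CPM of *Cxcl2* in CS and 19.4 CPM in TS, both under free RNA, in 28.4% and 17.8% of barcodes. These cells were deep, with medians of 62159 and 40038 UMIs, and were mostly in cluster 8 in CS and in clusters 1 and 5 in TS. Much of the *Cxcl2* of CS lay outside the named classes: cluster 3, led by *Scin*, *Gm15915*, and *Apoe*, was at 137 CPM and held 45.8% of the library's *Cxcl2* UMIs. In TS, the unnamed cluster 11, led by *St8sia6* and *Scin*, was at 231 CPM, against 23.2 CPM in TBM.

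Between libraries, the HSPC-like class showed 8 of the 9 genes above the minimum of 20 UMIs. On the log2 scale, for CS over CBM, 5 of 8 were higher and 1 lower, where 2.29% and 2.9% of all genes tested in the class were. The higher ones were *Cxcl2* at 3.78 (3.52 to 4.04), *Ccl2* at 3.68 (2.78 to 4.66), *Cxcl10* at 3.65 (2.71 to 4.67), *Ccl4* at 1.33 (1.21 to 1.45), and *Ccl3* at 1.30 (1.13 to 1.48). *Ccl6* fell by 2.01 (interval -3.49 to -0.83), with both libraries under free RNA. Of the higher ones, *Cxcl10* and *Ccl3* were also under free RNA in both libraries. The median over the 8 was 1.31, beside 0.02 over all genes of the class. Within cluster 0, led by *Hlf*, *Nkx2-3*, and *Adgrl4*, the values were 3.36, 2.68, 2.91, 1.23, and 1.26 for the same 5 genes, and within cluster 7, led by *Adgrl4*, *Cd34*, and *Hlf*, *Cxcl2* was higher by 3.20, *Ccl4* by 1.89, and *Ccl3* by 1.21.

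For TS over CS, none of the 8 HSPC-like ratios was called higher and 3 were lower, where 2.02% and 3.59% of all genes were. These were *Ccl2* at -4.01 (-5.23 to -2.96), *Ccl3* at -2.46 (-2.69 to -2.23), and *Ccl4* at -1.74 (-1.86 to -1.61). *Cxcl2*, at 0.90 (0.77 to 1.03), stayed under 2-fold, and *Cxcl10*, at -0.21 (-0.74 to 0.35), has an interval across 0. The class had 270 TS and 40 CS barcodes in cluster 19, whose leading genes include the stress and immune genes *Dusp2*, *Egr1*, *Socs3*, and *Mir155hg* beside *Ly6a*, and 373 TS barcodes in cluster 7. *Ccl4* was lower in TS within each cluster, with log2 ratios of -2.38, -1.99, and -0.96 in clusters 0, 7, and 19, and so was *Ccl3*, with -2.04, -2.18, and -2.59. *Cxcl2* went both ways, at -2.16 (-3.06 to -1.37) in cluster 0, where TS had 47 barcodes, 1.43 (1.17 to 1.71) in cluster 7, and 0.40 (0.21 to 0.61) in cluster 19.

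For TBM over CBM, *Ccl2* at 1.90 (1.04 to 2.86) and *Ccl5* at 1.18 (0.75 to 1.63) were the 2 of 8 HSPC-like ratios called higher, with 2.19% of all genes higher, and none was lower, with 2.62% of all genes so. Both *Ccl2* levels were under free RNA, with 1.06 against 6.88 CPM in CBM and 3.96 against 9.58 CPM in TBM. Of the 156 *Ccl5* UMIs of TBM, 67 came from a single barcode. For TS over TBM, *Cxcl2* at 3.77 (3.6 to 3.93) and *Cxcl10* at 3.12 (2.39 to 3.92) were higher and *Ccl2* at -2.23, *Ccl5* at -1.58, and *Ccl6* at -2.22 lower, where 1.54% and 3.76% of all genes were. Of the lower ones, *Ccl2* and *Ccl6* were under free RNA in both libraries. The class mixes unlike clusters here, since 684 of the 914 TBM barcodes were in cluster 0, while TS had 47 in cluster 0, 373 in cluster 7, and 270 in cluster 19. Within cluster 7, *Cxcl2* was higher in TS by 3.38 (3.13 to 3.63) and *Cxcl10* by 4.96 (3.06 to 8.03), *Ccl2* was at -1.47 (-2.90 to -0.16), *Ccl6* at -1.31 (-2.59 to -0.12), and *Ccl5* at -0.14 (-0.97 to 0.69), across 0. Within cluster 0, *Cxcl2* was at 0.70 (-0.21 to 1.48), and TS had 1 UMI of *Ccl5*, 1 of *Ccl6*, and 0 of *Ccl2*. The comparisons share libraries, so that a high CS value of *Ccl2* enters 2 of them.

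**Figure D5:**
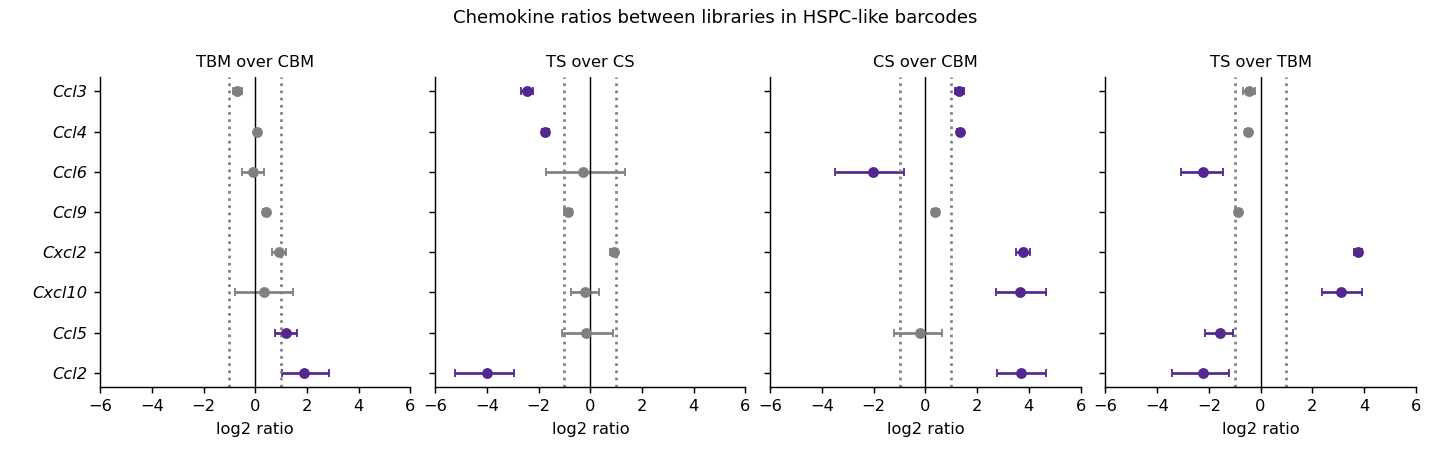
Log2 ratios of 8 chemokine genes in HSPC-like barcodes for the 4 library comparisons, with exact conditional 95% intervals; dotted lines mark 2-fold and purple points lie past it. *Cxcl2* and *Cxcl10* are higher in the spleen library of each spleen and marrow pair, while *Ccl2*, *Ccl3*, and *Ccl4* are lower in TS than in CS.

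Over all classes of at least 50 barcodes in both libraries, 42 pairs of a gene and a class passed the minimum for TS over CS, and 6 were higher and 15 lower, where 3.36% and 5.89% of all pairs were. For TBM over CBM the counts were 22 higher and 3 lower of 53 (4.09% and 3.59% of all pairs). For CS over CBM they were 17 and 11 of 42 (2.66% and 2.7%), and for TS over TBM 9 and 13 of 38 (2.76% and 4.36%). Of the 6 higher pairs for TS over CS, 4 are megakaryocyte-like, and single TS barcodes held 40 of 44 UMIs there for *Ccl3* and 46 of 47 for *Ccl6*. All 4 B-lineage-like pairs are among the higher ones for TBM over CBM, and single TBM barcodes held 34 of 45 UMIs there for *Ccl3*, 25 of 37 for *Ccl4*, 117 of 124 for *Ccl6*, and 38 of 51 for *Ccl9*. By gene, *Cxcl2* was called higher in 4 and lower in 0 of 5 classes for CS over CBM, 5 and 0 of 7 for TBM over CBM, 4 and 2 of 6 for TS over TBM, and 3 and 1 of 6 for TS over CS. *Ccl9* was higher in 0 and lower in 2 of 7 for CS over CBM, 1 and 0 of 9 for TBM over CBM, 0 and 3 of 6 for TS over TBM, and had no call in 6 for TS over CS. In the hemoglobin-rich class all 4 genes tested (*Ccl3*, *Ccl4*, *Ccl6*, and *Ccl9*) were lower in CS than in CBM, and all 4 tested (*Cxcl2* in place of *Ccl4*) in TS than in TBM, where 4.62% and 3.81% of all genes were. These rest on few UMIs, and single barcodes held 17 of 33 for *Ccl3*, 23 of 60 for *Ccl4*, 28 of 34 for *Ccl6*, and 14 of 34 for *Ccl9* in CBM, and 22 of 30 for *Ccl3* and 17 of 20 for *Cxcl2* in TBM.

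Mast-like barcodes, with 5 to 8 of 8 markers over the rest of the library, had 4 of 6 chemokine genes higher and 1 lower for CS over CBM, where 5.05% and 2.38% of all genes were. *Cxcl2* was higher in CS by 4.37 (3.41 to 5.52), *Ccl4* by 2.07 (1.73 to 2.42), and *Ccl3* by 1.76 (1.16 to 2.39), while *Cxcl10*, at -1.08 (-2.75 to 0.39), was called lower with an interval across 0. The *Ccl2* ratio of 4.95 (2.35 to 10.3) stood on 1 UMI in CBM and 28 in CS, 15 of them in a single barcode. TBM over CBM gave 3.56 (2.56 to 4.75) for *Cxcl2* and 1.27 for *Ccl3*. The *Ccl3* levels of this class were under free RNA in CBM, TBM, and CS. The class is small, with 73, 59, 69, and 32 barcodes.

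*Cxcl10*, the interferon-induced ligand, was higher in spleen in HSPC-like barcodes. These had 0.985, 1.23, 12.3 (8.81 to 16.8), and 10.7 CPM (8.81 to 12.8) in CBM, TBM, CS, and TS, and free RNA 1.72, 0.991, 19.5, and 10.3 CPM, so both were higher in spleen, and the part of free RNA in the difference was not tested. In CS, conventional dendritic-like barcodes were at 21.7 CPM (18.7 to 25.1), T, NK or innate lymphoid-like ones at 28.4 CPM (21.5 to 36.8), and early erythroid-like ones at 13.7 CPM (12.7 to 14.8). The 2 highest overlap. The early erythroid-like share with the transcript was 24.5%, beside 9.23% in hemoglobin-rich barcodes of CS. At 2000 UMIs it was 2.26% beside 4.62% (0.962 to 12.9), the latter 3 of 65 barcodes, so the share was not above that class. By level the hemoglobin-rich barcodes of CS were lower, at 5.94 CPM (2.72 to 11.3), so share and level did not go the same way. In TS the T, NK or innate lymphoid-like level was 2.15 CPM, and that of megakaryocyte-like barcodes 10.4 CPM, higher than CS by 1.28 (0.55 to 2.04). In TS dendritic-like barcodes 61 of 65 *Cxcl10* UMIs came from a single barcode. Mast-like barcodes had 14 UMIs in CBM (11.9 CPM) and 6 in CS (5.63 CPM), and 18 of the 22 UMIs of TBM basophil-like barcodes came from a single barcode. The highest levels were in endothelial-like barcodes of spleen, classes far under 50 barcodes, with 846 CPM (626 to 1119) in CS, where 9 of 11 barcodes had the transcript, and 170 CPM (90.6 to 291) in TS, where 2 of 6 had it.

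*Ccl5*, made by T and NK cells, was highest in lymphoid and dendritic classes of spleen among those of at least 50 barcodes. T, NK or innate lymphoid-like barcodes (123 in each spleen library) of CS had 437 CPM (409 to 467) and those of TS 71.0 CPM (60.5 to 82.6), a log2 ratio of -2.62 (-2.87 to -2.38). The transcript was in 37.4% and 25.2% of them, or 27.1% and 8.94% at 2000 UMIs, with median depths of 12620 and 16599 UMIs, and it was in 1 of 65 and 0 of 61 hemoglobin-rich barcodes, the latter with an interval up to 5.87%. The difference lay in cluster 25, led by *Trbc1*, *Trbc2*, and *Ly6d*, where it went from 376 to 35.8 CPM, while cluster 33, led by *Cd3d*, *Ms4a4b*, and *Trbc2*, had 848 and 711 CPM. In the same class *Cxcl10*, *Ccl3*, *Ccl4*, and *Ccl6* were also lower in TS, with log2 ratios of -3.72, -3.29, -2.50, and -3.06, which makes 5 of 7 genes beside 11.3% of all genes in the class, while *Cxcl2* was called higher, at 1.32 (0.55 to 2.16). That call rests on 24 UMIs in the 21 TS barcodes of cluster 33, since cluster 25 was at 0.45 (-0.43 to 1.37). A single barcode held 19 of the 55 TS UMIs, and both class levels, 9.47 CPM in CS and 23.7 CPM in TS, were under free RNA. Single CS barcodes held 41 of the 59 *Ccl3* UMIs, 85 of the 190 of *Ccl4*, and 30 of the 36 of *Ccl6*. The levels of *Ccl3*, *Ccl4*, and *Ccl6* in this class were under free RNA in both libraries. Free RNA of these genes was also lower in TS than in CS, and its part in their ratios was not tested. With chemokine genes kept in the clustering *Ccl3* was at -1.61 and *Ccl4* at -1.68, and with a mean over barcodes *Ccl4* was at -1.33. The dendritic markers summed to 6906 CPM in these CS barcodes and 351 CPM in the TS ones, beside 2816 and 127 CPM in free RNA, and their part in these ratios was not tested.

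In marrow the HSPC-like barcodes held the largest part of the *Ccl5* UMIs, 62 (69.7% of the library) in CBM and 156 (44.8%) in TBM, at 4.7 and 10.7 CPM. These lay in 16 of 823 and 18 of 914 barcodes, with up to 21 and 67 UMIs in a single one. Free RNA was at 5.59 CPM in CBM, over the HSPC-like level, and at 8.59 CPM in TBM. The 82 UMIs of TBM conventional dendritic-like barcodes (545 CPM) lay in 1 of 8. The 50 UMIs of TBM endothelial-like barcodes lay in 1 of 35, and the data go against that label in TBM, where 0 of 8 endothelial markers were 2-fold over the rest of the library. GMP-like barcodes of CBM had 0 UMIs, which at 3 UMIs allows up to 0.511 CPM. The 47 UMIs of TBM megakaryocyte-like barcodes lay in 2 of 507 barcodes.

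The conventional dendritic-like barcodes were almost all from CS (343, with 40 in TS). *Ccl5* was at 222 CPM there and 66.5% of the library's UMIs of it lay in this class. Cluster 35, with 22 CS barcodes led by *Ccl5*, *Fscn1*, and *Ccr7*, had 9418 CPM (8987 to 9865), in 86.4% of them, while cluster 17, with 321, had 10.9 CPM. *Ccl22*, the CCR4 ligand, was found in the same place. It had 190 UMIs in all kept barcodes, and 36 of the 40 dendritic-like ones in CS were in cluster 35, at 190 CPM (133 to 263), in 40.9% of the 22. In TS the class had 57 *Ccl22* UMIs, at 100 CPM (76.0 to 130), in 5 of 40 barcodes. In TBM its 8 barcodes had 88 UMIs, at 585 CPM (469 to 721), which lay in 2 of them and made up 97.8% of the *Ccl22* of that library. No UMI was counted in HSPC-like or basophil-like barcodes of any library, which at 3 UMIs allows up to 0.205 to 0.925 CPM in the former and up to 0.827 to 8.92 CPM in the latter.

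*Ccl2*, the monocyte attractant, had 80.6% of its UMIs in monocyte-like barcodes in CBM, 28.5% in TBM, and 6.59% in CS. These shares also follow the size of the class, which held 705, 253, and 85 barcodes. Among named classes of at least 50 barcodes, the monocyte-like one had the highest level in CBM and TBM but not in CS. Monocyte-like barcodes of CBM, TBM, and CS had 11.7 CPM (10.3 to 13.4), 21 CPM (17.8 to 24.6), and 4.64 CPM, in 12.5%, 26.5%, and 8.24% of them, beside 0.917%, 0.667%, and 0 of 65 hemoglobin-rich ones, the last with an interval up to 5.52%. At 2000 UMIs the shares were 3.41%, 5.16%, and 0%, beside 0.917%, 0%, and 0%, so the CS share was not above the hemoglobin-rich one at matched depth. Within cluster 13 the order was turned, at 31.3 CPM in CBM and 23.3 CPM in TBM, and within cluster 14, with 26 TBM barcodes, it was not, at 2.77 and 6.77 CPM, with a log2 ratio of 1.29 (-0.12 to 2.47). CS had 77 of its 85 monocyte-like barcodes in cluster 14, at 4.02 CPM, where CBM was at 2.77 CPM, so the CS over CBM ratio of -1.34 (-2.14 to -0.63) did not hold within that cluster. HSPC-like *Ccl2* rested on 14, 58, 44, and 9 UMIs (1.06, 3.96, 13.6, and 0.843 CPM). Megakaryocyte-like barcodes had 3.14, 13.5, 3.73, and 2.41 CPM, TBM being higher than CBM by 2.10 (1.39 to 2.89). In TBM GMP-like barcodes there were 161 UMIs (4.19 CPM) against 1 in CBM, and free RNA was at 9.58 CPM. The TBM level was 7.86 CPM in cluster 6, which held 425 TBM and 20 CBM barcodes, while 176 of the 248 CBM barcodes were in cluster 4, so the 2 values come from unlike mixes of clusters.

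Receptor genes for these ligands were read from the same barcodes. *Cxcr2*, the receptor of CXCL2, was at 485, 177, 522, and 199 CPM in basophil-like barcodes of CBM, TBM, CS, and TS, and at 514 CPM in TBM neutrophil precursor-like ones, but at 7.05 to 15.1 CPM in HSPC-like ones. *Ccr1*, shared by CCL3, CCL5, CCL6, and CCL9, was at 357, 299, 272, and 235 CPM in basophil-like barcodes. *Ccr2*, the receptor of CCL2, was at 243, 517, and 136 CPM in monocyte-like barcodes of CBM, TBM, and CS, and at 329, 207, 261, and 223 CPM in basophil-like ones from CBM to TS, while the unnamed cluster 27 of CBM was at 735 CPM. *Cxcr3*, the receptor of CXCL10, was highest in CS dendritic-like barcodes, at 21.5 CPM, and *Ccr4* was never above 1.29 CPM. The basophil-like class thus carried transcripts of ligands and of receptors at once. Over 23 receptor genes, 8 of 36 pairs with a class were higher and 3 lower for CS over CBM (2.66% and 2.7% of all pairs), 13 and 7 of 48 for TBM over CBM (4.09% and 3.59%), 5 and 12 of 43 for TS over CS (3.36% and 5.89%), and 7 and 3 of 33 for TS over TBM (2.76% and 4.36%).

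Of 28 other chemokine ligand genes, 27 were in the matrices. *Pf4*, a platelet chemokine, was at 5227, 2961, 2658, and 1349 CPM in megakaryocyte-like barcodes of CBM, TBM, CS, and TS, and *Cxcl9*, another CXCR3 ligand, at 432 CPM in CS dendritic-like ones. Of their pairs with a class, 3 of 23 were higher and 5 lower for CS over CBM (2.66% and 2.7% of all pairs), 2 and 4 of 29 for TBM over CBM (4.09% and 3.59%), 3 and 8 of 28 for TS over CS (3.36% and 5.89%), and 2 and 5 of 21 for TS over TBM (2.76% and 4.36%).

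Immediate-early genes, which digestion of tissue is known to raise, also differed in these comparisons. Over the list, 55 of 128 pairs with a class were higher and 1 lower for CS over CBM (2.66% and 2.7% of all pairs), 23 and 0 of 163 for TBM over CBM (4.09% and 3.59%), 5 and 24 of 131 for TS over CS (3.36% and 5.89%), and 19 and 5 of 113 for TS over TBM (2.76% and 4.36%). Their summed level in HSPC-like barcodes was 10330 CPM in CS and 9743 CPM in TS, against 6165 CPM in CBM and 6832 CPM in TBM, and in free RNA it was 5020, 4573, 3680, and 4368 CPM in that order. In T, NK or innate lymphoid-like barcodes it was 7401 CPM in CS and 4769 in TS, beside the lower chemokine values of TS. In basophil-like barcodes it was 16680, 19760, 28260, and 23500 CPM from CBM to TS. Basophil markers summed to 707, 1587, 826, and 1780 CPM in HSPC-like barcodes and to 848, 1759, 594, and 400 CPM in free RNA. What part either list has in the chemokine ratios was not tested.

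The genes whose levels ran most like these were found over 45 sums of a class in a library, as Pearson's r of log levels over 8408 genes. This is a description, since the sums share libraries. *Ccl3* and *Ccl4* were each other's closest gene, at 0.949, followed by the basophil receptor genes *Cd200r1* (0.9) and *Cd200r3* (0.896) for *Ccl3*. *Ccl6* was nearest to *Cyp4f18* (0.932), *Lilrb4a* (0.908), and *Lilr4b* (0.898), and *Ccl9* to *Trf* (0.899) and *Mboat1* (0.897). *Cxcl2* had lower values, with *Samsn1* (0.761), *Tmem88* (0.728), and the immediate-early gene *Ier2* (0.726), as had *Cxcl10*, with *Nr4a2* (0.652). *Ccl22* was nearest to the dendritic gene *Xcr1* (0.882) and *Ccl5* to *Trbc2* (0.766). *Ccl22* had 40 UMIs in the sum of CS conventional dendritic-like barcodes and at most 2 in any other sum. Its likeness thus rests on a single sum and does not tell genes of that class apart.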

How the data were processed

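Per the labels and the methods, the authors aligned reads of 4 droplet libraries (3′ v3.1 chemistry) and counted UMIs with Cell Ranger 4.0, with mm10 named as the build. The deposited counts are whole, unnormalized UMI counts of every barcode by gene, before the authors' SoupX step at 10%, the 350-gene minimum, and SCT. The libraries held 101811035 (CBM), 135207987 (TBM), 145301019 (CS), and 176094297 (TS) UMIs.

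Barcodes with at least 1000 genes and at most 10% mitochondrial UMIs were kept. Pearson residuals (theta 100) of 18850 genes, without the *Ccl*, *Cxcl*, *Cx3cl1*, and *Xcl1* ligand genes, gave 50 principal components, 20 neighbors, and 38 Leiden clusters at resolution 1.2. Clusters took a class name from listed markers (at least 3), and 10 stayed unnamed. No doublet caller was run. Of 16261 barcodes, 27 sequences occurred in more than 1 library. The members, lists, and named genes were chosen with earlier results of these data known; all 9 members are named, with up to 3 genes most like each, apart from results not reported here. Alternatives were another gene minimum, no mitochondrial limit, other clusterings, subtraction of 10% free RNA, a mean over barcodes, other UMI minimums, and leaving out the deepest 5% of barcodes. Known ratios were recovered from simulated Poisson counts, which checks the computation only. Those counts were drawn as class sums without spread between barcodes, so they say nothing on UMIs that lie in single barcodes. Promoter windows came from RefSeq, with 6 of 9 members matched. Python 3.11.15, numpy 2.4.6, scipy 1.17.1, scikit-learn 1.9.0, and leidenalg 0.10.2 were used.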

Additional observations from a re-analysis of the deposited data

Results flagged for a closer look

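With 1 library per group, no library could be set against replicates. The results here are pairs of called ratios that point opposite ways under the same contrast, and none of these differences was tested. For *Cxcl2* in basophil-like barcodes, TS over CS was -3.12 and TBM over CBM 1.29, a difference of -4.41 on the log2 scale. TS over CS of *Cxcl2* was also opposite in basophil-like and megakaryocyte-like barcodes, at -3.12 and 1.23, a difference of -4.35. TS over TBM of *Cxcl2* was 3.77 in HSPC-like and -3.51 in basophil-like barcodes, a difference of 7.28, and 3.92 in megakaryocyte-like ones, a difference of -7.43 from basophil-like to these. All of these rest on 7 *Cxcl2* UMIs in 65 TS basophil-like barcodes, and with 9 further TS barcodes at the 350-gene minimum the TS over CS ratio was 0.37 and the TS over TBM ratio -0.03.

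CS over CBM of *Ccl2* was 3.68 in HSPC-like and -1.34 in monocyte-like barcodes, a difference of 5.02, and 4.95 in mast-like ones, a difference of 6.29 from the monocyte-like value. The mast-like value stands on 1 UMI in CBM. Of the 85 monocyte-like barcodes of CS, 77 were in cluster 14, while those of CBM were in clusters 13 and 14, and within cluster 14 the ratio was 0.54 (-0.47 to 1.46), so the directions are not opposite there. TS over CS of *Cxcl10* was -3.72 in T, NK or innate lymphoid-like and 1.28 in megakaryocyte-like barcodes, a difference of -5.0. The lymphoid-like value of TS stands on 5 UMIs in 3 barcodes. The megakaryocyte-like levels were 10.4 CPM in TS, beside 10.3 CPM in free RNA, and 4.29 CPM in CS, beside 19.5 CPM. The part of free RNA in them was not tested.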

How the results depend on the processing

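No paired analysis was possible because each group has 1 library and no replicate numbers. Of the counts of calls recomputed under the alternatives, 91 stayed within 1.5 times and 13 did not. With 10% free RNA subtracted, CS over CBM had 5 lower, and TS over TBM 14 higher and 5 lower. With chemokine genes kept in the clustering, TBM over CBM had 7 lower. With at least 50 UMIs, CS over CBM and TS over TBM had 7 lower each. With only pairs over free RNA, added after seeing the data, TS over CS had 2 higher and 5 lower, TBM over CBM 6 and 1, CS over CBM 7 and 2, and TS over TBM 6 and 3, of 15, 14, 17, and 15 pairs. A pair enters that count through its higher library, so the count supports nothing. The cause of these shifts was not tested, save that both last settings keep fewer pairs. With at least 350 genes, *Cxcl2* in basophil-like barcodes was reversed for TS over CS, at 0.37 in place of -3.12, and 43 of the 44 called ratios among the 68 recomputed singly kept their direction. The other called ratios were recomputed only within the counts. All 44 kept it with no mitochondrial limit, at resolution 0.6, with a mean over barcodes, with chemokine genes in the clustering, and without the deepest 5% of barcodes or the shared ones, and 43 of 44 stayed past 2-fold at resolution 0.6, with the mean, and with chemokine genes kept. Sizes moved more, by up to 1.43 (log2) at resolution 0.6, 1.17 with the mean, 1.68 with chemokine genes kept, and 5.62 with free RNA subtracted. Depth limits *Ccl22*, with 190 UMIs in all, *Ccl2* outside monocyte-like barcodes, and every TS basophil-like value.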
